A study of Homo sapiens with 8 samples.

Results

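This report describes 38 genes of glycolysis and of the response to low oxygen in BT474, a long-established breast carcinoma line that carries an ERBB2 amplification. They were picked by symbol from a list of glycolytic enzymes, glucose and lactate transporters, pyruvate dehydrogenase kinases, regulators of the hypoxia-inducible factors (HIFs) and HIF targets. All 38 were present among the 26475 gene symbols of the deposited table. The samples were 4 libraries of BT474 cells labelled NPY1R high and 4 labelled NPY1R low, where NPY1R encodes the neuropeptide Y receptor Y1. The series title speaks of cells that persist under lapatinib, a drug that blocks the ERBB2 and EGFR kinases. For these libraries no drug or other treatment is given, and both groups are the same line. The labels list high and low as a genotype and do not say how the cells were made or separated, or whether replicates were separate cultures, so p-values measure the spread between these libraries, which may be technical.

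Glycolysis splits glucose into pyruvate, which is either reduced to lactate by lactate dehydrogenase or oxidised in mitochondria after the pyruvate dehydrogenase complex. Pyruvate dehydrogenase kinases close that second route. When oxygen is short, the prolyl hydroxylases EGLN1 and EGLN3 stop marking HIF1A and EPAS1 for destruction, and these pair with ARNT to switch on genes for glucose uptake, glycolysis, vessel growth, acid export and mitochondrial removal. Many glycolytic genes are therefore HIF targets themselves, so the role groups used here overlap in biology although each gene is counted once. HIF activity is set largely at the protein level, which these RNA counts do not measure.

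Total expected counts ranged from 18025648 to 30609791 per library. Levels are given as CPM, a gene's count divided by its library total and set to a common total, after scaling by the trimmed mean of M values (TMM). NPY1R had 699 to 1048.9 CPM in the NPY1R high libraries and 90.8 to 104 CPM in the NPY1R low libraries, so the labels hold for that gene. Luminal epithelial markers were abundant in all 8 libraries, with KRT8 at 1137.7 CPM or more. PDGFRB and CD3E were at 0 counts everywhere. The summed level of 3 leukocyte markers, nearly all CD68, was 0.936 to 1.23 CPM in NPY1R high, against 1.1 to 2.07 CPM in NPY1R low. The sum of 3 fibroblast markers, nearly all COL1A1, was 10.9 to 17.5 CPM in NPY1R high and 10.4 to 17.5 CPM in NPY1R low. ESR1, the estrogen receptor, was at 100 to 108 CPM in NPY1R high but 67.3 to 74.1 CPM in NPY1R low, and EPCAM at 216 to 235 but 257 to 289 CPM. The sum of 3 endothelial markers, nearly all VWF, was 9.22 to 15.5 CPM in NPY1R high but 13.5 to 18.2 CPM in NPY1R low. The part of these markers in the results below was not tested. Bulk RNA cannot tell a smaller share of cells expressing a gene from less RNA per cell.

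The promoters of 4 genes show how differently the HIF core motif is spread over these genes. Each stretch is the 250 bases before the start in RefSeq (GRCh38.p14), read 5′ to 3′ on the gene's strand, and capitals mark ACGTG or GCGTG on either strand, the core of the HIF binding site. LDHA and LDHB are shown as paralogs that moved in opposite directions between the groups, and BNIP3 and ANKRD37 as HIF targets that were lower in NPY1R high. LDHA lies at chr11:18394313-18394562 (+ strand), LDHB at chr12:21657843-21658092 (- strand), BNIP3 at chr10:131981924-131982173 (- strand) and ANKRD37 at chr4:185396591-185396840 (+ strand).
LDHA: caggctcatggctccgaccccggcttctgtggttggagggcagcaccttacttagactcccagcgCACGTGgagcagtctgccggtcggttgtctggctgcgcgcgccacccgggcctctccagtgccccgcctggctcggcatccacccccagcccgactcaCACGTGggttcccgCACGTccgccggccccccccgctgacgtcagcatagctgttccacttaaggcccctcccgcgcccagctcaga
LDHB: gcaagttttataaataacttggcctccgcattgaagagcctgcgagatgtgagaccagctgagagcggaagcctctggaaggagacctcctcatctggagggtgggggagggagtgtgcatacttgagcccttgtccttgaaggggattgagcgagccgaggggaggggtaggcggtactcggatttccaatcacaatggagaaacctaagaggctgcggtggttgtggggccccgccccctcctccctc
BNIP3: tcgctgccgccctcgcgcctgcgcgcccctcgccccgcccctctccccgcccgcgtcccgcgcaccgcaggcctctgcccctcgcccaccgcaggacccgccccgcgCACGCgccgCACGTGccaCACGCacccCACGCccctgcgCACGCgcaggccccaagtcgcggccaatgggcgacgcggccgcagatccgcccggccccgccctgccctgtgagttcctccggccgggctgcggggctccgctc
ANKRD37: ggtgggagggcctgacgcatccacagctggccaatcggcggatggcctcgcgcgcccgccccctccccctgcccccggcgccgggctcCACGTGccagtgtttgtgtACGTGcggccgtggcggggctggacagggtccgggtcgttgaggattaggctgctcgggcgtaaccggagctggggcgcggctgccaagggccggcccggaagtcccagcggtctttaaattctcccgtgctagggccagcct
LDHA held 3 separate matching stretches, 2 of them the palindrome CACGTG, which matches ACGTG on both strands. BNIP3 held 5 and ANKRD37 held 2, while LDHB held 0. These 4 were picked by their changes and do not stand for the rest. Of genes not shown, HK2, lower in NPY1R high, held 3, but EGLN3 and PDK1, also lower, held 0. PGK1, which was not called, held 3. A link between matches and changes was not tested. Promoters were matched for 35 of the 38 genes. The HIF targets VEGFA, NDRG1 and BNIP3L had no matched promoter, although VEGFA and NDRG1 were lower in NPY1R high. ACGTG was found in 15 of those 35 (42.9%), against 23.5% of 10248 promoters of tested genes and 18.7% of all 27305 promoters. GCGTG was found in 12 of 35 (34.3%), against 45.3% and 31.9%, and either motif in 22 of 35 (62.9%), against 57.3% and 43.1%. A match describes these letters only and is no evidence of binding.

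NPY1R high cells had lower RNA levels of a group of HIF targets and of the pyruvate dehydrogenase kinases PDK1 and PDK3 than NPY1R low cells. Of 19 glycolytic enzymes, 13 were not called, though the change was negative for 16, against 55.9% of all tested genes. Their groups did not overlap for 10 of 19, against 20.2% of all tested genes. Of the 38 genes, 36 passed the filter on low counts and were tested, and 14 passed edgeR's quasi-likelihood test at an adjusted p under 0.05, and 12 of them were lower and 2 higher in NPY1R high. Over all 14008 tested genes, 13.6% were called, 7.81% lower and 5.78% higher, or 5.59% lower and 7.2% higher with upper-quartile scaling. HIF targets had a median log2 change (high minus low) of -0.68, with 5 of 8 tested lower. Transporters and pyruvate dehydrogenase kinases had a median of -0.47 with 2 of 4 lower, HIF regulators -0.18 with 1 of 5 lower, and glycolytic enzymes -0.18 with 4 lower and 2 higher of 19. The median of all tested genes was -0.03. The change was negative for 31 of 36 genes, against 55.9% of all tested genes. Groups did not overlap for 18 of 36 genes, against 20.2% of all tested genes. The count of lower genes was 10 with upper-quartile scaling, and 10 with any TMM reference other than the default, NPY1R low replicate 4. It fell to 7 without NPY1R high replicate 3 and to 7 without NPY1R low replicate 3. The share of all tested genes called without these libraries is not given, so the fall cannot be set against a background.

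**Figure D1:**
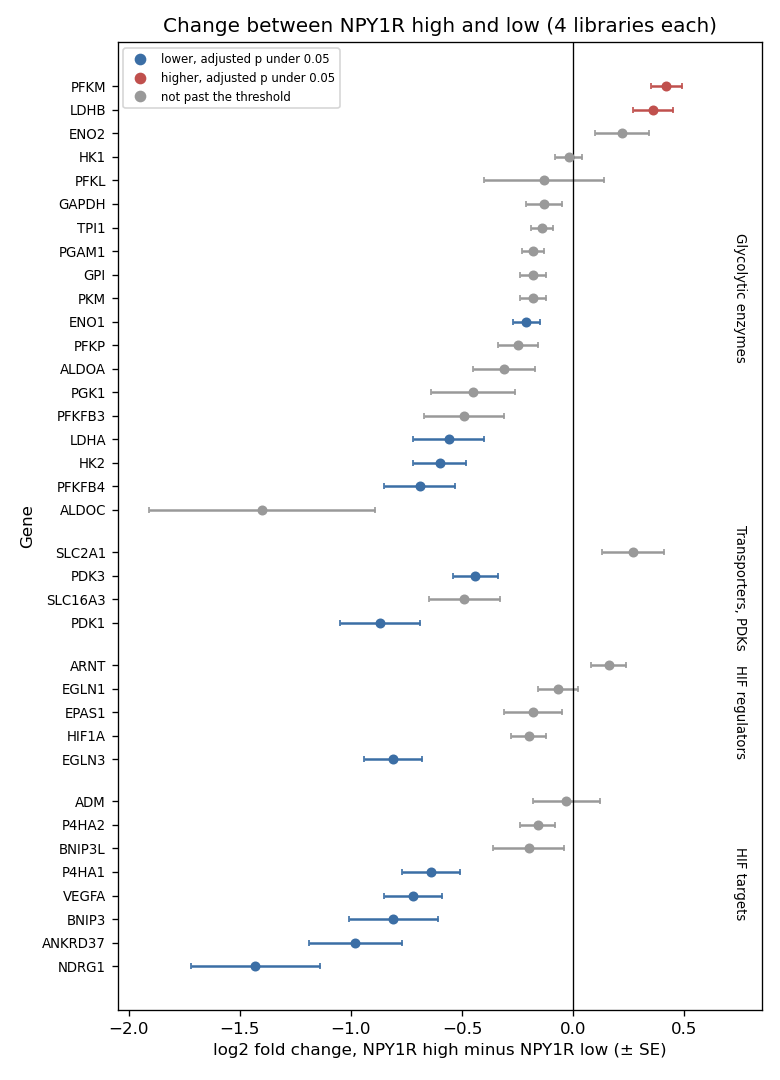
Log2 fold change (NPY1R high minus NPY1R low, horizontal axis) with its standard error for the 36 tested genes, grouped by role, from 4 libraries per group. Blue marks the 12 genes lower and red the 2 genes higher in NPY1R high at an adjusted p under 0.05; the HIF targets extend to -1.43 at NDRG1, and PFKM at 0.42 is the largest rise.

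Among HIF targets, NDRG1, a stress-response gene strongly induced by low oxygen, had the largest change. Its level was 38.1, 30.2, 38.4 and 41.8 CPM in NPY1R high replicates 1 to 4 and 81.6, 48.6, 121 and 147 CPM in NPY1R low replicates 1 to 4. Every NPY1R low library was above every NPY1R high library, but the NPY1R low libraries spread widely, with replicates 3 and 4 highest. The mean was 2.69-fold higher in NPY1R low, and the log2 change was -1.43 (SE 0.29, adjusted p 0.00853 by edgeR's quasi-likelihood test).

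VEGFA, the main growth factor for blood vessels, was at 46.9, 42.8, 51.1 and 55.4 CPM in NPY1R high, against at 73.5, 63.8, 91.7 and 93.3 CPM in NPY1R low. The groups did not overlap. VEGFA changed by a log2 of -0.72 (SE 0.13, edgeR adjusted p 0.00467). P4HA1, a subunit of the prolyl hydroxylase that matures collagen, was at 47.6, 42.4, 50.4 and 49.1 CPM in NPY1R high, against 71.7, 55.8, 78.8 and 89.7 CPM in NPY1R low. It was lower in NPY1R high by a log2 of -0.64 (SE 0.13, edgeR adjusted p 0.00831). Its paralog P4HA2 had 22.9 ± 1.49 CPM in NPY1R high, against 25.7 ± 1.63 CPM in NPY1R low (mean ± SD, n = 4 per group) and was not called (edgeR adjusted p 0.245).

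BNIP3 and BNIP3L encode mitochondrial outer membrane proteins that mark mitochondria for removal. BNIP3 was at 38.6, 39.2, 46 and 39.9 CPM in NPY1R high, against 56.7, 49.3, 79.7 and 103 CPM in NPY1R low. The NPY1R high libraries lay close together below all NPY1R low libraries. BNIP3 changed by a log2 of -0.81 (SE 0.20, edgeR adjusted p 0.0237). This call was lost without any 1 of the NPY1R high replicates 1, 2, 3 and 4 (adjusted p 0.0644, 0.0667, 0.0507 and 0.0872) and without NPY1R low replicate 3 (0.0715). BNIP3L had 109, 113, 133 and 123 CPM in NPY1R high, against 113, 104, 158 and 175 CPM in NPY1R low, and the groups overlapped (log2 change -0.20, SE 0.16, edgeR adjusted p 0.485).

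ANKRD37, a small ankyrin-repeat gene induced by HIF1A, stood at 1.34, 1.15, 1.52 and 1.54 CPM in NPY1R high, against 2.08, 2.31, 3.16 and 3.42 CPM in NPY1R low. The groups did not overlap, and the log2 change was -0.98 (SE 0.21, edgeR adjusted p 0.0117). ADM, the vessel-dilating peptide adrenomedullin, was at 4.93 ± 0.472 CPM in NPY1R high, against 5.04 ± 0.902 CPM in NPY1R low (mean ± SD, n = 4 per group, edgeR adjusted p 0.942), with a log2 change of -0.03 whose sign flipped under other scalings.

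Neither CA9 nor ANGPTL4 passed the filter. CA9, a carbonic anhydrase of the cell surface used as a tissue marker of hypoxia, had 0, 0, 2 and 3 counts in NPY1R high replicates 1 to 4 and 4, 2, 31 and 39 counts in NPY1R low replicates 1 to 4. Only NPY1R low replicates 3 and 4 were clearly above the 3 counts that a count of 0 allows. Without the filter, CA9 had an edgeR adjusted p of 0.0652. ANGPTL4, a secreted inhibitor of lipoprotein lipase, had at most 4 counts in a library and 7 counts over each group.

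The regulators of HIF, by contrast, moved little except for EGLN3. HIF1A, the oxygen-regulated subunit, was at 426 ± 39.2 CPM in NPY1R high, against 489 ± 40.9 CPM in NPY1R low (mean ± SD, n = 4 per group), with overlapping groups (log2 change -0.20, SE 0.08, edgeR adjusted p 0.149). With each library's trend on GC content removed, its adjusted p was 0.02 at a log2 change of -0.22. EPAS1, the related HIF-2 alpha subunit, was at 15.5 ± 1.97 and 17.6 ± 2.48 CPM, and ARNT, the constant partner, at 45.6 ± 1.11 and 40.8 ± 4.19 CPM (NPY1R high and low, mean ± SD, n = 4 per group). Neither was called, at edgeR adjusted p values of 0.434 and 0.230. Per kilobase of transcript, HIF1A (109 CPM per kb in NPY1R high) stood far above EPAS1 (3.01 CPM per kb).

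EGLN3, a prolyl hydroxylase that is itself a HIF target, was at 31.4, 29.5, 31.8 and 29.6 CPM in NPY1R high, against 49.5, 41.9, 54.4 and 68.5 CPM in NPY1R low. The NPY1R high libraries were nearly equal and all lay below the NPY1R low libraries. The log2 change was -0.81 (SE 0.13, edgeR adjusted p 0.00252). EGLN1, the main oxygen sensor of this family, was at 31 ± 1.92 CPM in NPY1R high, against 32.6 ± 3.76 CPM in NPY1R low (mean ± SD, n = 4 per group, edgeR adjusted p 0.704).

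**Figure D2:**
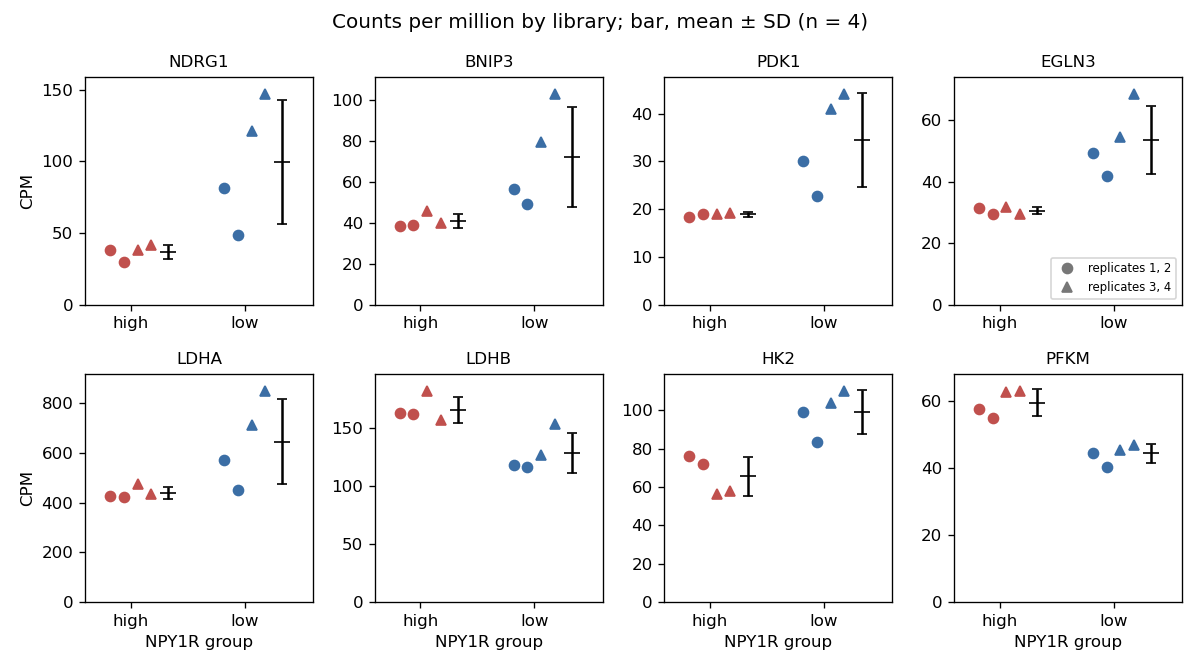
CPM (vertical axis, from 0) of 8 genes in each library, with NPY1R high in red and NPY1R low in blue. Circles are replicates 1 and 2, triangles replicates 3 and 4, and black bars the mean ± SD of 4 libraries. For NDRG1, BNIP3, PDK1, EGLN3 and LDHA the NPY1R low triangles are the highest points, up to 147 CPM for NDRG1, while LDHB and PFKM are higher in NPY1R high.

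Of the pyruvate dehydrogenase kinases, which keep pyruvate out of mitochondrial oxidation, PDK1 and PDK3 were lower in NPY1R high, and PDK2 was not. PDK1, a classic HIF target, was at 18.3, 19, 19 and 19.3 CPM in NPY1R high, against 30.1, 22.8, 41 and 44.1 CPM in NPY1R low. The NPY1R high libraries were almost identical, and the NPY1R low libraries spread widely, all above them. PDK1 changed by a log2 of -0.87 (SE 0.18, edgeR adjusted p 0.0103). PDK3 was at 153, 166, 137 and 159 CPM against 182, 183, 237 and 230 CPM, a log2 change of -0.44 (SE 0.10, edgeR adjusted p 0.0172). The PDK3 call was lost without NPY1R high replicate 3 (0.0811), NPY1R high replicate 4 (0.0664) or NPY1R low replicate 3 (0.0522). PDK2, outside the 38 genes and added after its values were seen, was at 59.8, 56.3, 43.7 and 52.5 CPM in NPY1R high and 45.7, 46.9, 39.9 and 26.9 CPM in NPY1R low. Its groups overlapped and its mean was higher in NPY1R high, with a log2 change of 0.41 (SE 0.17, edgeR adjusted p 0.145). With the GC trend removed, PDK2 was called higher (0.47, edgeR adjusted p 0.0006). PDK4, also outside the 38 genes and added after its values were seen, was called lower at a low level. It was at 1.35 ± 0.438 CPM in NPY1R high, against 2.4 ± 0.351 CPM in NPY1R low (mean ± SD, n = 4 per group, log2 change -0.84, edgeR adjusted p 0.0436).

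The transporters at either end of the pathway were not called. SLC2A1, the GLUT1 glucose importer, was at 107, 107, 78.1 and 79.5 CPM in NPY1R high, against 87.8, 83.5, 74.1 and 63.1 CPM in NPY1R low (log2 change 0.27, SE 0.14, edgeR adjusted p 0.251). In both groups replicates 3 and 4 were below replicates 1 and 2. A fit that allowed replicates 3 and 4 their own level gave SLC2A1 an edgeR adjusted p of 0.00983. SLC16A3, the lactate exporter MCT4, was at 6.65 ± 0.883 CPM in NPY1R high, against 9.34 ± 1.78 CPM in NPY1R low (mean ± SD, n = 4 per group, log2 change -0.49, edgeR adjusted p 0.0788). It passed without NPY1R low replicate 4 (0.0118) and with the GC trend removed (0.00364). GC content was 62.6% for SLC16A3, against a median of 48.8% over tested genes.

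Among the glycolytic enzymes, 4 were lower and 2 higher, and 13 were not called. HK2, the inducible hexokinase that traps glucose in the cell, was at 76.4, 72.2, 56.2 and 57.8 CPM in NPY1R high, against 99.4, 83.5, 104 and 110 CPM in NPY1R low. The groups did not overlap, and the log2 change was -0.60 (SE 0.12, edgeR adjusted p 0.00784). HK1, the housekeeping hexokinase, was at 276 ± 18.6 and 281 ± 13.8 CPM (NPY1R high and low, mean ± SD, n = 4 per group, edgeR adjusted p 0.871), with a log2 change of -0.02 whose sign flipped under other scalings. GPI, which makes fructose 6-phosphate, was at 370 ± 25.0 and 417 ± 12.8 CPM and was not called (edgeR adjusted p 0.0802).

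Phosphofructokinase, the committed step, is built from the subunits PFKL, PFKM and PFKP. PFKM, the muscle-type subunit, was at 57.6, 55.1, 62.9 and 63 CPM in NPY1R high, against 44.7, 40.4, 45.6 and 47.1 CPM in NPY1R low. All NPY1R high libraries were above all NPY1R low libraries, with a log2 change of 0.42 (SE 0.07, edgeR adjusted p 0.00313). PFKP had a log2 change of -0.25 (edgeR adjusted p 0.107) and passed under 7 alternatives, among them the GC offset (0.0111) and leaving out NPY1R low replicate 4 (0.0316). PFKL, the liver-type subunit with 63.5% GC, ranged from 39.6 to 71.9 CPM in NPY1R high, against from 31.1 in NPY1R low replicate 4 to 77.6 CPM (edgeR adjusted p 0.822). Per kilobase, PFKM made up 28% ± 4.19 of the 3 subunits in NPY1R high and 20.3% ± 4.36 in NPY1R low, and PFKP 44.2% ± 1.17 and 50.8% ± 2.66 (mean ± SD, n = 4 per group). The PFKM shares of the groups overlapped, while the PFKP shares did not. The GC trend was not removed from these shares, and PFKM has 50.8% and PFKP 58.1% GC. The part of GC content in them was not tested.

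PFKFB3 and PFKFB4 make fructose 2,6-bisphosphate, the activator of phosphofructokinase. PFKFB4 was at 16.4, 12.6, 15.7 and 17.4 CPM in NPY1R high, against 24.3, 18.2, 29.9 and 27.8 CPM in NPY1R low, without overlap. Its log2 change was -0.69 (SE 0.16, edgeR adjusted p 0.0162), lost without NPY1R high replicate 3 (0.0531) or NPY1R low replicate 3 (0.0523). PFKFB3 was at 17.1 ± 1.38 CPM in NPY1R high, against 20.9, 16.1, 30.1 and 29.1 CPM in NPY1R low. Only NPY1R low replicates 3 and 4 stood well clear of the NPY1R high libraries, and PFKFB3 was not called (log2 change -0.49, edgeR adjusted p 0.114), though it passed without NPY1R low replicate 2 (0.0149).

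Of 5 further abundant enzymes none was called. ALDOA, the main aldolase, was at 506 ± 60.1 and 627 ± 121 CPM in NPY1R high, against low, TPI1, which interconverts the triose phosphates, at 479 ± 15.0 and 529 ± 21.0 CPM, and PGAM1, the phosphoglycerate mutase, at 200 ± 6.84 and 227 ± 12.1 CPM (mean ± SD, n = 4 per group). GAPDH, the most abundant enzyme here, was at 2108.5 ± 159 and 2311.9 ± 226 CPM, and PKM, the pyruvate kinase, at 1326.1 ± 47.7 and 1503.9 ± 79.2 CPM (mean ± SD, n = 4 per group). The edgeR adjusted p values were, in that order, 0.194, 0.0943, 0.0558, 0.379 and 0.0665. TPI1, PGAM1 and PKM had no overlap between the groups, while ALDOA and GAPDH overlapped. ALDOA passed without NPY1R low replicate 4 (0.0096) and with the GC trend removed (0.00153), and PGAM1 passed without NPY1R low replicate 2 (0.0349).

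ENO1, the main enolase, was at 987 ± 17.2 CPM in NPY1R high, against 1142.7 ± 82.6 CPM in NPY1R low (mean ± SD, n = 4 per group), a log2 change of -0.21 (SE 0.06, edgeR adjusted p 0.0463). The call is fragile, since it was lost in 7 of the 8 fits that left out a library (up to 0.214), all but that without NPY1R low replicate 2, and under every other scaling tried. ENO2, the neuronal enolase, was at 15.6 ± 0.282 and 13.4 ± 2.13 CPM (edgeR adjusted p 0.274). ALDOC, the brain aldolase, had few counts, from 4 to 64. It was at 0.721, 0.558, 0.543 and 0.22 CPM in NPY1R high, against 0.906, 0.49, 1.78 and 2.51 CPM in NPY1R low (log2 change -1.40, SE 0.51, edgeR adjusted p 0.105), and passed without NPY1R low replicate 2 (0.0289). PGK1, the first ATP-producing enzyme and a HIF target, was at 525, 519, 624 and 572 CPM in NPY1R high, against 628, 516, 829 and 1076.2 CPM in NPY1R low. Its groups overlapped because of NPY1R low replicate 2, without which its adjusted p was 0.0394 in place of 0.176 (edgeR).

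Lactate dehydrogenase showed opposite changes of its subunits. LDHA, the HIF-induced subunit that favours lactate formation, was at 427, 421, 473 and 434 CPM in NPY1R high, against 570, 451, 712 and 847 CPM in NPY1R low. LDHB, the subunit of oxidative tissues, was at 163, 162, 182 and 157 CPM in NPY1R high, against 118, 117, 127 and 154 CPM in NPY1R low. LDHA overlapped between the groups through NPY1R low replicate 2, and LDHB did not overlap. The log2 changes were -0.56 for LDHA (SE 0.16, edgeR adjusted p 0.0478) and 0.36 for LDHB (SE 0.09, edgeR adjusted p 0.0242). Both calls are close to the threshold. LDHA was lost in 7 of 8 fits leaving out a library, all but that without NPY1R low replicate 2 (up to 0.152), and under every other scaling tried. LDHB was lost in 6 of the 8, all but those without NPY1R high replicate 4 or NPY1R low replicate 4 (up to 0.0718).

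A ratio of 2 genes within a library needs no scaling between libraries, so 12 pairs of related genes were tested over the 8 libraries by an exact permutation test (two-sided). The ratios given here were taken without removing GC trends. The LDHA to LDHB count ratio was 2.61, 2.6, 2.61 and 2.77 in NPY1R high and 4.82, 3.86, 5.61 and 5.51 in NPY1R low. The ratio was nearly constant in NPY1R high and higher in every NPY1R low library, a log2 difference of -0.89 (high minus low). Per kilobase, LDHA made up 62.7% ± 0.706 of the pair in NPY1R high and 75.6% ± 3.25 in NPY1R low (mean ± SD, n = 4 per group).

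EGLN3 to EGLN1 had ratios of 0.939, 0.969, 1.01 and 1.03 in NPY1R high and 1.64, 1.37, 1.72 and 1.79 in NPY1R low. BNIP3 to BNIP3L had 0.354, 0.346, 0.346 and 0.324 against 0.5, 0.474, 0.503 and 0.588. EGLN3 and BNIP3 thus made up more of their pair in every NPY1R low library. The log2 ratio of HK2 to HK1 differed by -0.58, P4HA1 to P4HA2 by -0.46 and ENO2 to ENO1 by 0.44 (high minus low), also without overlap. These 6 pairs each had an exact permutation p of 0.0286, the smallest that 4 against 4 libraries allow, and an adjusted p of 0.0571 over the 12 pairs, so 0 passed. Without NPY1R low replicate 2, 7 pairs passed at an adjusted p of 0.049, these 6 and PDK1 to PDK3. The smallest possible p was again 0.0286, and the 6 passed only because PDK1 to PDK3 reached it too. Their pass is thus no stronger separation of these 6. EPAS1 to HIF1A showed a difference of 0.02 (exact permutation p 0.914).

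**Figure D3:**
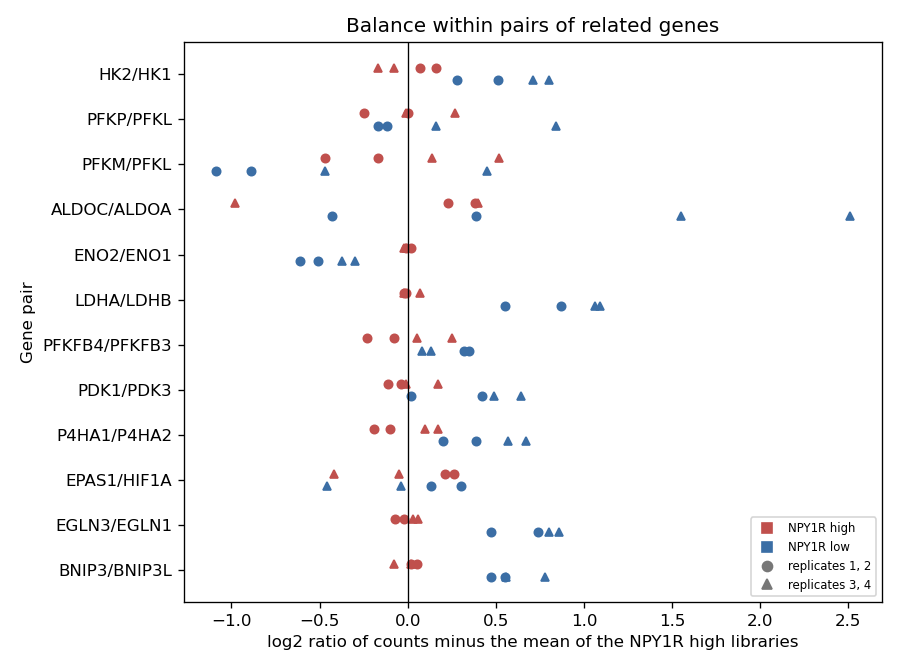
Log2 ratio of counts within 12 gene pairs in each library, minus the mean of the NPY1R high libraries (horizontal axis); red is NPY1R high, blue NPY1R low, circles replicates 1 and 2, triangles replicates 3 and 4. The NPY1R high points of LDHA/LDHB, ENO2/ENO1, EGLN3/EGLN1 and BNIP3/BNIP3L lie close together and apart from all NPY1R low points.

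The difference was also described within replicates 1 and 2 and within replicates 3 and 4. That division comes from earlier results of these data and from no label, and no gene passed the test of a difference between the subsets given below. HIF targets had a median log2 change of -0.47 within replicates 1 and 2 and -0.78 within replicates 3 and 4. For glycolytic enzymes the medians were -0.13 and -0.23, for transporters and kinases -0.35 and -0.51, and for HIF regulators -0.19 and -0.19. NDRG1 changed by -0.93 (SE 0.22) and -1.75 (SE 0.22), BNIP3 by -0.44 (SE 0.13) and -1.08 (SE 0.13), PDK1 by -0.51 (SE 0.13) and -1.15 (SE 0.13), and LDHA by -0.27 (SE 0.12) and -0.78 (SE 0.12). HK2 changed by -0.30 (SE 0.09) and -0.91 (SE 0.09), while PFKM changed by 0.41 and 0.44 (SE 0.08 each).

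The change was more negative in replicates 3 and 4 for 28 of 36 genes, among them all 8 tested HIF targets, against 46.7% of all tested genes. In a test of this difference itself (an interaction term in edgeR's quasi-likelihood test), 0 of 36 passed an adjusted p of 0.05, as did 0 of all 14008 (0%). At an unadjusted p under 0.05 there were 13 of 36, against 7.3% of all tested genes. The smallest adjusted p of these genes was 0.685. HK2 had an unadjusted p of 0.000774 and PDK3 of 0.00236. Since the division came from earlier results of these same data, these unadjusted values are description only and support nothing on their own. With the GC trend removed, 0 of 36 and 1 of all tested genes (0.00714%) passed, and the smallest adjusted p of these genes was 0.163.

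**Figure D4:**
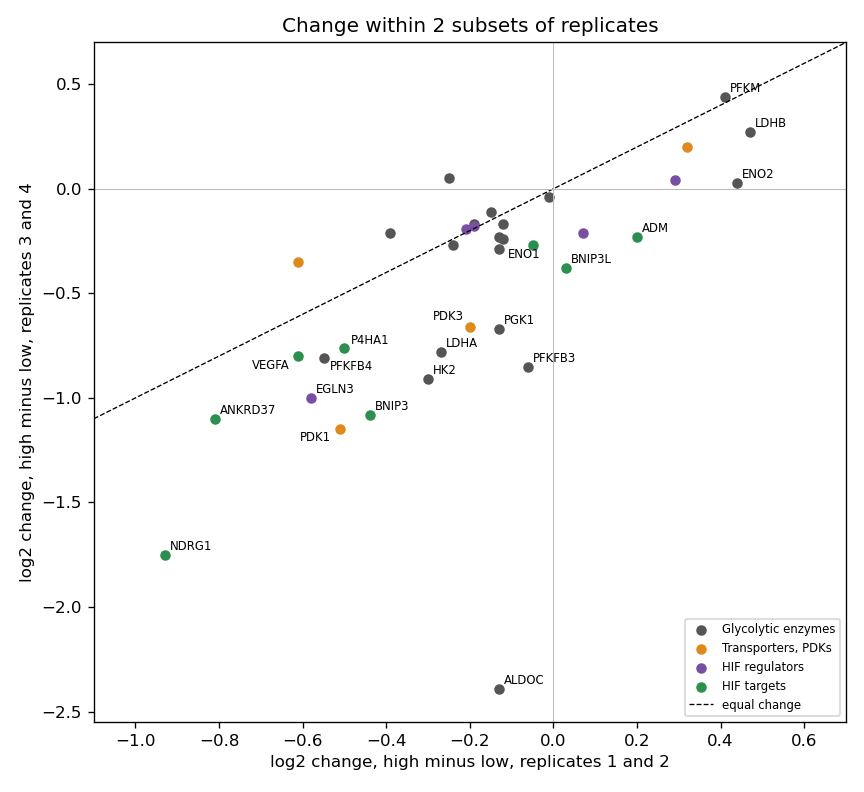
Log2 change (high minus low) within replicates 1 and 2 (horizontal axis) and within replicates 3 and 4 (vertical axis) for the 36 tested genes, coloured by role; the dashed line marks equal change. Most points lie below the line, NDRG1 at -0.93 and -1.75 and ALDOC at -0.13 and -2.39, while PFKM lies on it.

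For 7 of the 8 HIF targets the spread was larger in NPY1R low than in NPY1R high. Between NPY1R low replicates 3 and 4 and NPY1R low replicates 1 and 2, HIF targets differed by a median log2 of 0.51, against 0.18 for the same comparison in NPY1R high. NPY1R low replicates 3 and 4 were both above replicates 1 and 2 for 23 of 36 genes, 7 of the 8 HIF targets among them, against 27.5% of all tested genes. NPY1R low replicates 3 and 4 were both below for 8 of 36, against 33.2%. In NPY1R high, replicates 3 and 4 were both above for 10 of 36, against 22.8%, and both below for 12, against 26.1%. HK2 moved in opposite directions in the groups, by 0.23 in NPY1R low and -0.38 in NPY1R high (replicates 3 and 4 minus 1 and 2). NPY1R low replicate 2 was the lowest library of its group for 24 of 36 genes, against 24.7%, and NPY1R low replicate 4 the highest of all 8 for 17, against 20.8%. The spread between libraries was larger in NPY1R low than in NPY1R high for 29 of 36 genes, against 61.2% of tested genes.

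The mean level of the 8 tested HIF targets, relative to their mean over all libraries, was -0.29, -0.43, -0.22 and -0.23 log2 units in NPY1R high replicates 1 to 4. In NPY1R low replicates 1 to 4 it was 0.14, -0.10, 0.50 and 0.62. For the 19 glycolytic enzymes the values were -0.01, -0.12, -0.16 and -0.19, then 0.13, -0.06, 0.21 and 0.20. The HIF targets were thus separated between the groups in every library, whereas the enzymes overlapped, with NPY1R low replicate 2 below NPY1R high replicate 1.

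**Figure D5:**
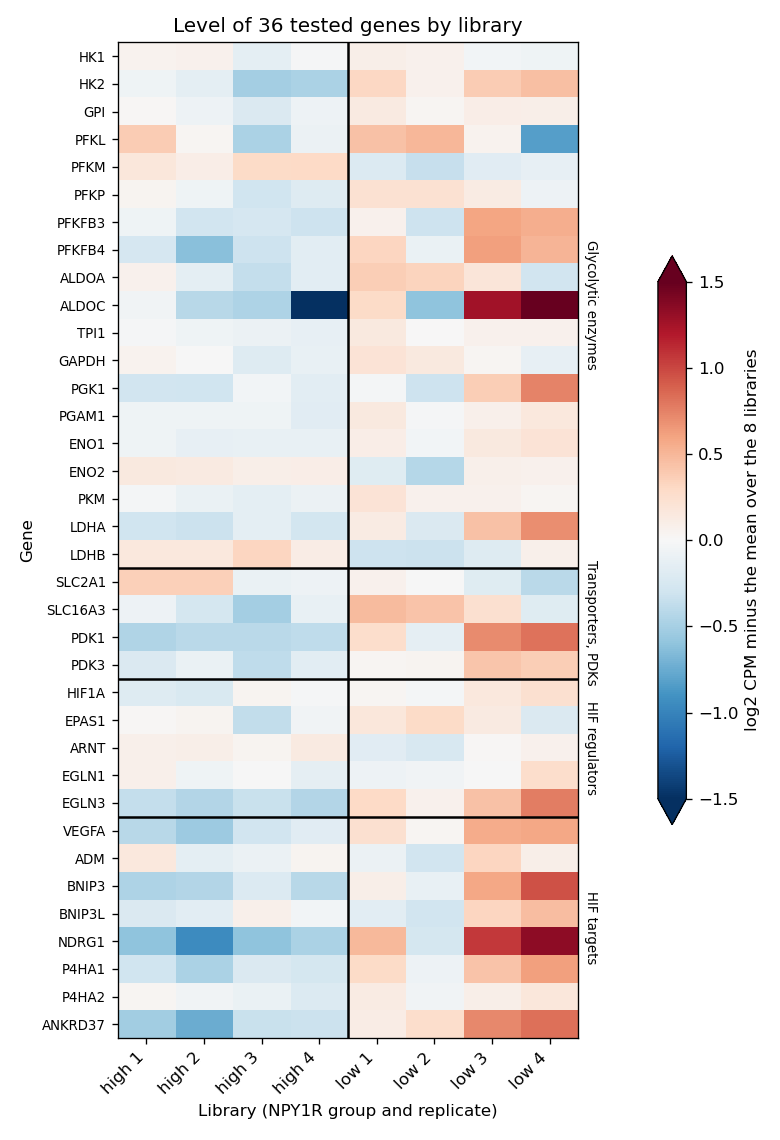
Log2 CPM of the 36 tested genes in each library (columns) minus the mean over the 8 libraries, with genes (rows) grouped by role and colours limited to 1.5 in each direction. The columns for NPY1R low replicates 3 and 4 are the darkest red for most HIF targets, PDK1, PGK1 and LDHA, while PFKL, ALDOA and SLC2A1 are blue in NPY1R low replicate 4.

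Libraries also differed in how counts followed transcript GC content. The rank correlation of GC content with the deviation from the mean level, taken over genes, which are not independent, was 0.47 (Spearman) for NPY1R low replicate 1 but -0.556 for the fourth. The glycolytic enzymes had a median GC of 55.6%. With the trend removed, the medians were -0.68 for HIF targets and -0.16 for glycolytic enzymes, and 15 genes were lower and 2 higher, against 21.1% of all tested genes called. The HIF target levels in NPY1R low replicates 1 to 4 were then 0.10, -0.14, 0.50 and 0.69, so the order of these libraries was as before. NPY1R low replicates 3 and 4 were then both above replicates 1 and 2 for 27 of 36 genes (25.3% of tested genes) and both below for 3 (28.9%). NPY1R high replicates 3 and 4 were both above for 10 (25.3%) and both below for 9 (26.4%). The spread was larger in NPY1R low for 29 (53.3%), NPY1R low replicate 4 was highest for 25 (19%), and NPY1R low replicate 2 was lowest of its group for 28 (27.1%). With NPY1R low replicates 3 and 4 left out, a fit chosen after seeing the data, 9 of the 14 calls remained, and those of PFKFB4, ENO1, LDHA, PDK3 and ANKRD37 were lost (ANKRD37 -0.62, edgeR adjusted p 0.0886). HIF targets then had a median of -0.36, NDRG1 a log2 change of -0.77 (edgeR adjusted p 0.0223), EGLN3 -0.53 (0.00402) and VEGFA -0.44 (0.0227).

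Of 104 other genes listed for these pathways, 90 were tested, with 10 lower and 7 higher in NPY1R high. These counts lie near the background of 7.81% lower and 5.78% higher over all tested genes and are no result about the pathways. Of 33 further HIF targets, 7 were lower and 3 higher, with a median log2 change of -0.25 against -0.03 for all tested genes. CXCR4, a chemokine receptor, changed by -1.54 (SE 0.21, edgeR adjusted p 0.00096), PLOD1, a collagen lysyl hydroxylase, by -0.33 (SE 0.09, edgeR adjusted p 0.0482), and FUT11 by -0.35 (SE 0.10, 0.0472). The FUT11 call was lost with the GC trend removed (0.087). In the other direction, STC2, a secreted stanniocalcin, was at 120 ± 12.1 CPM in NPY1R high, against 60.5 ± 2.78 CPM in NPY1R low (mean ± SD, n = 4 per group, log2 change 0.99, edgeR adjusted p 2.77e-05). CA12, a carbonic anhydrase related to CA9, rose by 0.69 (SE 0.07, edgeR adjusted p 0.000104), and IGFBP3, which binds insulin-like growth factors, by 3.01 (SE 0.76, edgeR adjusted p 0.0262). IGFBP3 was at 21.7 and 28.5 CPM in NPY1R high replicates 1 and 2 but 4.45 and 3.74 CPM in replicates 3 and 4. STC2 and CA12 are also known estrogen receptor targets.

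Of 27 other genes of glycolysis, pyruvate entry and transport, 2 were lower and 3 higher, again near that background. SLC2A10, the transporter GLUT10, was at 96.5 ± 9.27 CPM in NPY1R high, against 147 ± 8.66 CPM in NPY1R low (mean ± SD, n = 4 per group, log2 change -0.61, edgeR adjusted p 0.000497). SLC16A1, the monocarboxylate transporter MCT1, rose by a log2 of 0.54 (SE 0.11, edgeR adjusted p 0.00968). Of 19 genes of the pentose phosphate and glycogen pathways, UGP2, which makes UDP-glucose, was lower (-0.29, SE 0.08, edgeR adjusted p 0.0322) and PPP1R3C, a glycogen-targeting phosphatase subunit, was higher (1.03, SE 0.10, edgeR adjusted p 0.000126). The count of lower genes in these lists depended on the model, at 4 to 9 when each library was left out, with 4 without NPY1R high replicate 4 and 5 without NPY1R high replicate 1, NPY1R high replicate 2, NPY1R low replicate 1 or NPY1R low replicate 3.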

How the data were processed

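RNA was measured in 8 libraries of BT474 cells, 4 NPY1R high and 4 NPY1R low, prepared from column-purified, DNase-treated RNA with a stranded kit, per the labels' protocols. The authors deposited expected counts for each gene symbol, without scaling. STAR 2.5.2, RSEM 1.3.0 and build hg38 are named in the submitters' processing notes, with no role given. The annotation is not given in the sources used here. The 8 single-sample tables held the same values as the series table (0 differing). Fractional counts occurred for 5 of the 38 genes (TPI1, PGAM1, HIF1A, P4HA2, ANKRD37), so reads there were divided between features.

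Counts were rounded, since the design had assumed whole numbers. Genes were filtered with filterByExpr (minimum count 10), leaving 14008 of 26475, scaled by TMM, and compared with no covariates in edgeR's quasi-likelihood test (edgeR 4.0.16, R 4.3.3), with Benjamini-Hochberg adjustment over all tested genes and a threshold of 0.05. Standard errors were derived from the F statistic. The procedure was tested on simulated data. Log2 levels by library used a prior count of 2. GC and length came from the longest principal transcript of each gene in GENCODE release 29 (GC for 94.2% of tested genes), so levels per kilobase are approximate. GC trends were splines with 5 degrees of freedom. Library totals are in the report.

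The genes and lists were chosen with earlier results of these data known. All 38 are named, with NPY1R. Of the other lists, up to 3 called genes per direction with the largest change, a mean level of 5 CPM or more and groups that do not overlap are named. Alternatives were other scalings, filters, TMM references, DESeq2 1.42.0, limma-voom 3.58.1, robust shrinkage, a replicate block, a term for replicates 1 and 2 against 3 and 4, a GC offset, a stricter threshold and leaving out each library. Libraries with the same number were not treated as pairs.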

Additional observations from a re-analysis of the deposited data

Results flagged for a closer look

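Of 72 group values tested (36 genes in each group of 4 libraries), 1 library stood apart by Dixon's criterion at the 95% level. PGAM1 was at 190 CPM in NPY1R high replicate 4, below 203, 204 and 204 CPM in replicates 1 to 3. Chance alone sets apart about 1 in 20 such groups.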

How the results depend on the processing

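Of the 14 calls, 6 held under every one of 30 alternatives, which include the stricter threshold of 0.01 (HK2, PFKM, EGLN3, VEGFA, NDRG1 and P4HA1). PDK1 missed only that threshold, at an edgeR adjusted p of 0.0103 in the main fit. Its adjusted p was at most 0.0423 under all alternatives. ENO1 lost its call under 26 and LDHA under 23, through any other scaling or reference, and the cause was not tested. At an adjusted p under 0.01, 5 genes were lower, 1 higher and 4 of the other pathway genes lower. The share of all tested genes is not given at that threshold or for the fits below that leave out libraries. These counts therefore cannot be set against a background. Allowing replicates 3 and 4 their own level gave 19 genes lower, without and with the GC offset. The share of all tested genes called under these fits is not given, so the higher count is no stronger result. With the GC offset alone that share rose from 13.6% to 21.1%. Leaving out NPY1R low replicates 3 and 4 gave 4 higher genes and medians of -0.36 (HIF targets), -0.32 (transporters and kinases) and -0.05 (HIF regulators). Leaving out each library gave 7 to 16 genes lower, 1 to 2 higher, 0 to 7 pairs past the threshold, and a median of -0.18 to -0.07 for HIF regulators (-0.07 without NPY1R high replicate 3). In these fits leaving out each library, only PFKM and LDHB were called higher. Where the count was 1, that gene was PFKM, and LDHB had lost its call.

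Of the other pathway genes, 6 were lower with median-of-ratios factors, 6 at 1 CPM in 4 libraries, 6 with each of 6 other TMM references (NPY1R high replicates 1, 2 and 3, NPY1R low replicates 1, 2 and 3), 5 with upper-quartile factors, 5 without a filter, 20 with the GC offset, 20 with the term for replicates 1 and 2 against 3 and 4, and 30 with both, where 13 were higher. Leaving out each library gave 4 to 9 lower. With the GC offset 1795 of all 14008 tested genes were lower, against 1094 in the main fit. Shares of all tested genes are given only for the main fit, upper-quartile factors and the GC offset. The counts from the other fits are therefore no result about the pathways.

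Changes near 0 reversed. HK1 moved from -0.02 to 0.00, 0.01, 0.02 or 0.03 with other scalings, references, filters, DESeq2 and GC offsets, with -0.05 to 0.05 on leaving out single libraries. ADM moved from -0.03 to 0.00, 0.01 or 0.02 likewise (-0.12 to 0.08), and to 0.22 without NPY1R low replicates 3 and 4, where PGK1 was 0.01, EGLN1 0.08 and BNIP3L 0.18. PFKL ranged from -0.31 to 0.03, EGLN1 from -0.11 to 0.05, and the log2 ratios of PFKP to PFKL from -0.29 to 0.05 and EPAS1 to HIF1A from -0.13 to 0.16 on leaving out single libraries.

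With the replicate block, 13 genes were lower and 3 higher, PFKP (0.0436), SLC2A1 (0.0369) and HIF1A (0.0496) joining the calls and ENO1 leaving them. With the block and the GC offset, 16 were lower and 3 higher, and 24 of the other pathway genes were lower. The share of all tested genes called with the block is not given, so these counts cannot be set against a background. Deviations of same-numbered libraries correlated at 0.339, 0.157, 0.0907 and 0.0178 across genes, or 0.194, 0.184, 0.0837 and 0.104 with GC trends removed, and replicate 3 was under 0.1 in both. Depth limits CA9, ANGPTL4 and ALDOC.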

Other observations

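Some called genes of the other lists lay at low levels or outside the naming rule and were chosen after their values were seen. BHLHE40, a clock-linked repressor induced by HIF, was at 1.65 CPM in NPY1R high, against 6.44 CPM in NPY1R low, a log2 change of -1.96 (SE 0.35, edgeR adjusted p 0.00446). LOX, which cross-links collagen, changed by -1.09 (SE 0.26, edgeR adjusted p 0.0207), MAFF by -0.75 (SE 0.20, 0.0324, lost with the GC trend removed at 0.0904) and HILPDA, a lipid droplet protein, by -0.27 (SE 0.05, 0.00467). PDK4, a further pyruvate dehydrogenase kinase, changed by -0.84 (SE 0.24, edgeR adjusted p 0.0436). SLC16A7, the monocarboxylate transporter MCT2, rose by 1.53 (SE 0.25, edgeR adjusted p 0.00281) and SLC2A12, the transporter GLUT12, by 0.90 (SE 0.13, edgeR adjusted p 0.00127).

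Changes within replicates 1 and 2 and within replicates 3 and 4 are given for some of these genes as values only. STC2 changed by 0.87 within replicates 1 and 2 and 1.11 within replicates 3 and 4, and SLC16A1 by 0.55 and 0.54. CXCR4 changed by -1.48 and -1.66, and BHLHE40 by -1.39 and -2.33.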
